A study of Mus musculus with 2 samples.

Results

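The mouse major histocompatibility (MHC) region was described as the 3.6 Mb at mm9 chr17:33900001-37500000, cut into 100 kb steps. These were 36 of the 25536 steps that held a listed cytosine in replicate 2, and they were chosen by position alone. The 39 steps of the proximal flank, chr17:30000001-33900000, and the 35 steps of the distal flank, chr17:37500001-41000000, were set against them. The series profiled DNA methylation by whole-genome bisulfite sequencing of the dentate gyrus, a part of the hippocampus rich in granule neurons, and described methylation in the adult brain. There was 1 group of 2 wild-type libraries, replicate 1 and replicate 2, from male mice of 8 to 10 weeks, of the strain labelled C57Black6 on a C57BL/6 background, with no treatment in the labels. The dentate gyrus was dissected from both hemispheres as a whole tissue, so each level averages over its cell types, and the number of mice per library is not given in the sources used here. Bisulfite turns unmethylated cytosine into a base read as thymine, and it cannot separate methylcytosine from hydroxymethylcytosine.

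The MHC region holds class I genes, whose products show peptides from inside the cell to T cells, and class II genes, whose products show peptides taken up from outside. Between them lies the class III segment, with complement, heat shock and tumour necrosis factor family genes. In the mouse the class I genes of the Q, T and M groups, many of them near copies of each other, lie beyond class III, and olfactory receptor genes follow on the distal side. In mammals most CpG dinucleotides are methylated, while CpG-dense promoters are usually not. In adult neurons cytosines outside CpG also carry some methylation, written CHG or CHH after the following bases, where H is A, C or T.

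Gene positions of mm9 were not used here, so the label was checked by placing RefSeq promoters (GRCm38.p6, 250 bases before to 50 bases after each gene start) on the listed cytosines of mm9. A promoter was placed where every listed cytosine under it fell on a cytosine of the right context. Of 1619 promoters of chromosome 17, 14 could be placed in the region and its flanks, and all 14 stood in RefSeq order among themselves. The 7 in the MHC region were Pfdn6, Lta, Gm32252, H2-Q6, H2-Q7, Vars2 and Olfr99. They include Q-group class I genes and a tumour necrosis factor family gene, so the region holds the genes its name calls for. In RefSeq order, Pfdn6 and Lta enclose 82 protein-coding genes, among them H2-K1, the class II genes H2-Ab1, H2-Aa and H2-Eb1, the peptide transporters Tap1 and Tap2, complement C4b and Tnf. H2-D1, H2-Q1, H2-Q2 and H2-Q4 lie between Lta and Gm32252, among 7 protein-coding genes. Between Vars2 and Olfr99 lie 62 protein-coding genes, of which 16 are class I genes or pseudogenes of the T and M groups and 9 are olfactory receptor genes. This placement was devised after the data were seen.

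The promoters below carry the contrast in CpG methylation described further on. They are given as RefSeq prints them for the gene's strand, 5′ to 3′, and capitals mark the CpG dinucleotides with a listed level. H2-Q6 and H2-Q7 code for class I proteins, Pfdn6 for a subunit of the chaperone prefoldin, Vars2 for the mitochondrial valyl-tRNA synthetase and Lta for the cytokine lymphotoxin alpha. Their places by cytosine pattern were mm9 chr17:35561544-35561843 on the plus strand for H2-Q6, chr17:35575849-35576148 on the plus strand for H2-Q7, and, on the minus strand, chr17:34077225-34077524 for Pfdn6, chr17:35804487-35804786 for Vars2 and chr17:35342246-35342545 for Lta.
H2-Q6: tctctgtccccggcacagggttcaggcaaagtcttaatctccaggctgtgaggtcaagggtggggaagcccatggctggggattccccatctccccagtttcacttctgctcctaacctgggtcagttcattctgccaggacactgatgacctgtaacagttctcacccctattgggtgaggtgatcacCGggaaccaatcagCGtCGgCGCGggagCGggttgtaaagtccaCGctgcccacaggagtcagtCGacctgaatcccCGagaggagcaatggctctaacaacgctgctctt
H2-Q7: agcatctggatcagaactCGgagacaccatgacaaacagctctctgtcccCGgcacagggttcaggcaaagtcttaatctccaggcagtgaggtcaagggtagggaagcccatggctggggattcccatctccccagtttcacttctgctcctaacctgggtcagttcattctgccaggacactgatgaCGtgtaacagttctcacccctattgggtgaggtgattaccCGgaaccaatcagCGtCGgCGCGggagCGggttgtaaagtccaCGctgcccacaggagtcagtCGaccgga
Pfdn6: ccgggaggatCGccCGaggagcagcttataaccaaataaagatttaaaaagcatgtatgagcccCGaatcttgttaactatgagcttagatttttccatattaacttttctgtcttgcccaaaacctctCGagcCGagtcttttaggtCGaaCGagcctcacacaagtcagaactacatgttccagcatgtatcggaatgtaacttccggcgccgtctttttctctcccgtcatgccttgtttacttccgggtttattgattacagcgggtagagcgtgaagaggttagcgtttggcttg
Vars2: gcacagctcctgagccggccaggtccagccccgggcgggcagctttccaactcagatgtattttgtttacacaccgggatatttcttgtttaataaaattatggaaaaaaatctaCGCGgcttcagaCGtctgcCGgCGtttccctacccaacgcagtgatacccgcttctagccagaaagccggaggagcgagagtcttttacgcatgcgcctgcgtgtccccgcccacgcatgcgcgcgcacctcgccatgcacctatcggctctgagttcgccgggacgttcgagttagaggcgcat
Lta: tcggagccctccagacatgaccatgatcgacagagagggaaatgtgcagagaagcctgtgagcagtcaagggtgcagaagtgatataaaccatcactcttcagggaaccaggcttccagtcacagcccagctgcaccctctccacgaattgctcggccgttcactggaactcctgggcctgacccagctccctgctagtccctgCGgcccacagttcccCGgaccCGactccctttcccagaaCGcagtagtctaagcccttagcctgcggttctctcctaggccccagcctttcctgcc

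The CpG level of the MHC region was 70.9% (95% exact interval 70.5 to 71.2; 3242 sites, 76229 reads), against 76.2% in the proximal flank, 71.3% in the distal flank and 79.0% over the autosomes. Levels are methylated reads over all reads of the listed sites. The region's CHG level was 0.650% (0.627 to 0.673; 20594 sites, 485004 reads), against 0.697% in the proximal flank, 0.419% in the distal flank and 0.784% over the autosomes. Its CHH level was 0.712% (0.671 to 0.755; 4634 sites, 155042 reads), against 0.656%, 0.407% and 0.889% in those 3 sets. The region thus stood below the autosomes in all 3 contexts and, outside CpG, above its distal flank. Mitochondrial DNA, taken as little methylated, gave a CHG and CHH level of 0.368% over 24979699 reads, which was used as the background of incomplete conversion. Whether nuclear DNA was converted at the same rate was not tested. The distal flank step chr17:38000001-38100000 had a CHH level of 0.145% (0.077 to 0.248), below this background. The CHG level of the MHC region was 1.77 times this background, against 1.90 times in the proximal flank and 1.14 times in the distal flank. The CHH level of the MHC region was 1.94 times background, against 1.78 and 1.11 times in the proximal and distal flanks.

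Differences between segments were tested with a two-sided Fisher's exact test on summed reads, Benjamini-Hochberg adjusted over the 6 comparisons. Reads are PCR products without molecular identifiers and come from 1 library, so intervals and tests cover counting error only and compare segments, not conditions. The region's CpG level was lower than the proximal flank's by Fisher's test (difference -5.38 points, -5.80 to -4.96; adjusted p = 7.88e-141). Its CpG level against the distal flank differed by -0.431 points (-0.880 to 0.018; adjusted Fisher p = 0.0611) and did not pass. Other depth limits changed it: by Fisher's test it was 20.3 points at sites of at least 30 reads (adjusted p = 4.68e-205), 52.7 points at 40 reads (adjusted p = 1.73e-282) and 40.6 points with no maximum, while sites of at most 50 reads gave -4.18 points (adjusted p = 2.58e-74). It also turned on single steps: it was -5.24 points without the distal step chr17:39900001-40000000, whose CpG level was 28.8%, and 0.376 points without the MHC step chr17:35500001-35600000, which listed the most sites. The CHG level was 0.231 points above the distal flank's (0.204 to 0.259; adjusted Fisher p = 1.69e-63), and the CHH level 0.305 points above it (0.259 to 0.352; adjusted p = 8.96e-45). Against the proximal flank the differences outside CpG were small: CHG was lower by -0.047 points (-0.079 to -0.015; adjusted Fisher p = 0.00596), and CHH differed by 0.056 points (-0.002 to 0.115; adjusted p = 0.0611). Neither kept its side of the threshold at every depth limit. The CHG difference was 0.021 points (adjusted Fisher p = 0.687) when only sites of at least 30 reads were counted and 0.417 points (adjusted p = 0.0283) at 40 reads. The CHH difference at 40 reads was 0.495 points and passed Fisher's test (adjusted p = 5.70e-05).

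**Figure D1:**
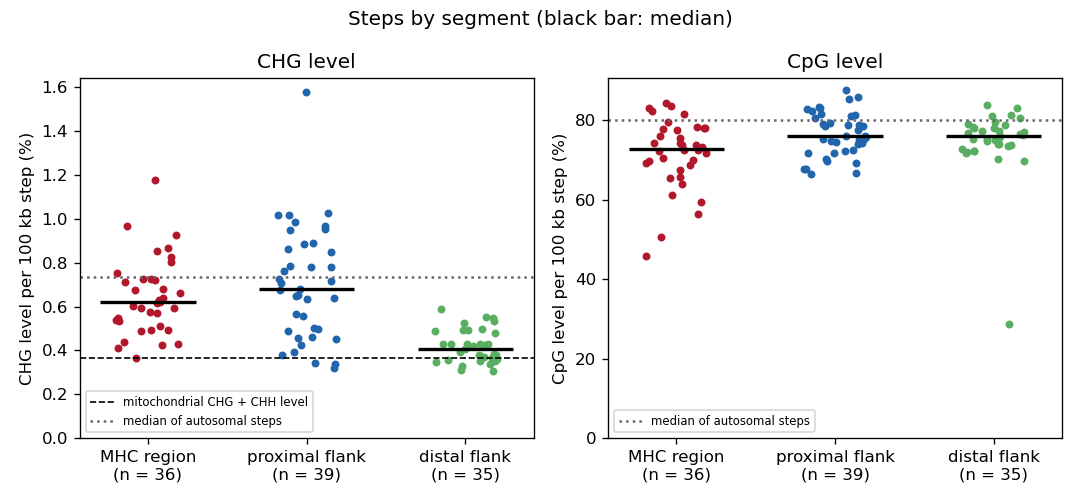
CHG level (left) and CpG level (right) of each 100 kb step in percent, 1 point a step, in the MHC region (36 steps), the proximal flank (39) and the distal flank (35); black bars are medians, the dashed line is the mitochondrial level and dotted lines the autosomal medians. MHC steps had a median CHG level of 0.618% and a median CpG level of 72.9%, against 0.404% and 76.0% in the distal flank.

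Step by step, CHG levels ranged between 0.366% and 1.18% in the MHC region with a median of 0.618%, against a median of 0.680% in the proximal flank, 0.404% in the distal flank and 0.734% over 23800 autosomal steps. A one-sided exact binomial test of each step against the mitochondrial level, adjusted over all autosomal steps, put 30 of the 36 MHC steps above background in CHG at an adjusted p under 0.05 (83.3%). Over all autosomal steps 93.4% passed. Of the flanks, 31 of 39 proximal steps (79.5%) and 10 of 35 distal steps (28.6%) passed. The share in the MHC region was thus nearer to that of the proximal flank than to that of the distal flank, and below the autosomal share. In CHH only steps with at least 100 sites were tested, and 13 of 18 MHC steps passed (72.2%), against 15 of 25 proximal steps (60%) and 6 of 35 distal steps (17.1%), where 89.4% of autosomal steps passed. Of the 18 MHC steps tested in both contexts, 11 passed in both, 4 in CHG alone, 2 in CHH alone and 1 in neither.

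**Figure D2:**
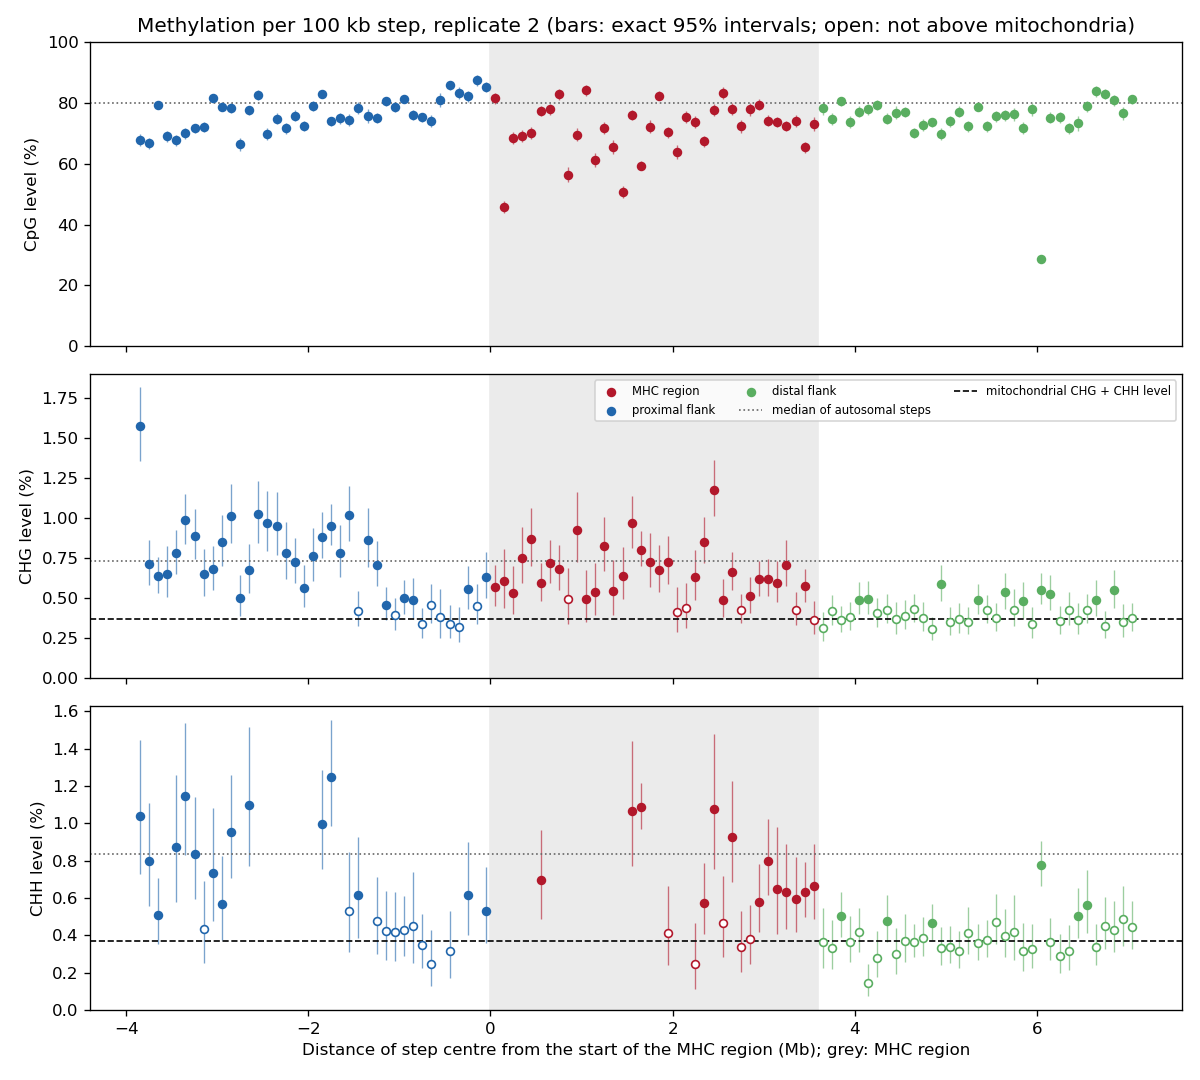
CpG, CHG and CHH levels of each 100 kb step in percent along chromosome 17, against the distance of the step's centre from the start of the MHC region in Mb, with 95% exact intervals; the MHC region is shaded, open circles did not pass the test against the mitochondrial level (dashed), dotted lines are autosomal medians, and CHH is drawn for tested steps. In the CHG panel 6 of 36 MHC steps are open, against 8 of 39 proximal and 25 of 35 distal steps.

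Adjacent MHC steps above background in CHG are given here as blocks. With 30 of 36 steps passing, long blocks can follow from the share alone, and clustering was not tested. The CHG levels of blocks come from steps picked by that same test. A stretch of 8 steps, chr17:33900001-34700000, had a CHG level of 0.663% (0.614 to 0.716), and it holds the placed Pfdn6 promoter. The longest block, 11 steps at chr17:34800001-35900000, had 0.742% (0.696 to 0.790) and holds the promoters of Lta, H2-Q6, H2-Q7 and Vars2. Blocks of 5 steps each followed at chr17:36100001-36600000 with 0.773% (0.712 to 0.839) and at chr17:36700001-37200000 with 0.608% (0.557 to 0.663), both between Vars2 and Olfr99. That interval holds the T-group and M-group genes among many others, and neither block was tied to a gene. Steps that did not pass were few and short inside the region: the sole stretch of adjacent ones was the 2 steps chr17:35900001-36100000, at 0.424% (0.333 to 0.532) in CHG and 0.352% (0.152 to 0.692) in CHH. In the flanks such stretches were longer, with 5 steps at 0.365% in the proximal flank (chr17:33100001-33600000) and 7 steps at 0.386% in the distal flank (chr17:38100001-38800000). At the distal edge of the region its last step, with the olfactory receptor promoter Olfr99, and the next 4 steps of the flank, at 0.371%, did not pass in CHG.

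The highest CHG level among MHC steps was 1.18% (1.01 to 1.36; exact binomial test, adjusted p = 7.15e-39) at chr17:36300001-36400000, where the CHH level was 1.07% and the CpG level 77.7%. The next were 0.967% at chr17:35400001-35500000, 0.926% at chr17:34800001-34900000, 0.868% at chr17:34300001-34400000 and 0.854% at chr17:36200001-36300000. High CHG did not always come with high CHH: the step at chr17:35400001-35500000 had 1.07% in CHH, but the one at chr17:34300001-34400000 had 0.326% from 57 sites (0.120 to 0.707). The lowest were 0.366% at chr17:37400001-37500000, 0.411% at chr17:35900001-36000000, 0.425% at chr17:37200001-37300000, 0.428% at chr17:36600001-36700000 and 0.437% at chr17:36000001-36100000. Of these, the steps at chr17:37400001-37500000 and chr17:37200001-37300000 passed the exact binomial test in CHH (0.667%, adjusted p = 1.85e-04, and 0.594%, adjusted p = 0.00531), so they were not at background in both contexts. The remaining step that did not pass was chr17:34700001-34800000, with 0.493% (0.339 to 0.691) from 299 CHG sites, the fewest of any MHC step. Among simulated autosomal steps, which listed a median of 780 CHG sites, 99.5% passed at 2 times background and 69.5% at 1.5 times, so a small excess in a step of few sites may not be detectable. Most simulated steps were at background, unlike the data, so these shares do not give the recovery among the MHC steps.

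Pooled, the 30 steps that passed had 0.692% in CHG and 0.744% in CHH (0.699 to 0.791), and the 6 that did not pass had 0.421% in CHG and 0.514% in CHH (0.422 to 0.619). The CHG values only restate the split, while CHH was read at other cytosines. The CpG level was 71.1% (70.7 to 71.4) in the steps that passed and 69.5% (68.7 to 70.4) in those that did not, a gap far smaller than the spread of single steps. As a description over steps that share 1 library, CHG and CHH levels correlated with Pearson's r = 0.62 and Spearman's rho = 0.42 over 18 steps, and CHG and CpG levels with r = 0.03 and rho = -0.05 over 36 steps. CHG level and the number of listed CHG sites, which follows coverage, gave r = 0.09 and rho = 0.11.

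Single cytosines outside CpG were called methylated with the same binomial test per site, at an adjusted p under 0.01. In the MHC region 236 of 20594 CHG sites were called (1.15%, 1.01 to 1.30), where 1.46% of all nuclear CHG sites were, against 1.31% in the proximal and 0.491% in the distal flank. Of 4634 CHH sites in the region 86 were called (1.86%, 1.49 to 2.29), where 2.75% of nuclear CHH sites were, against 1.70% in the proximal and 0.848% in the distal flank. Both MHC shares lay below the nuclear ones, and their intervals did not reach them. Called sites were partly methylated: their median level was 16.7% in CHG and 12.5% in CHH, while 91.3% of the region's CHG sites and 88.1% of its CHH sites had no methylated read. The step at chr17:36300001-36400000 had the most called CHG sites, 21 of 658 (3.19%).

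Of the 5 called sites with the lowest p, 3 had the H2-Q6 start as the nearest among the few placed gene starts. A CHH site at chr17:35568679-35568679, between the H2-Q6 and H2-Q7 starts and 6885 bases after the H2-Q6 start, had 18 methylated of 54 reads (33.3%, exact binomial test, adjusted p = 2.85e-27). A CHG site at chr17:35561133-35561133, 661 bases before that start, had 13 of 42 (31.0%, exact binomial test, adjusted p = 3.20e-18), and a CHH site at chr17:35559778-35559778, 2016 bases before it, had 12 of 38 (31.6%, adjusted p = 1.19e-17). These 3 sites were read more deeply than the region's medians of 22 reads in CHG and 32 in CHH. The others were CHG sites at chr17:36348929-36348929, with 11 of 23 reads (47.8%, exact binomial test, adjusted p = 1.14e-17), and at chr17:36898509-36898509, with 11 of 28 (39.3%, adjusted p = 1.51e-16).

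Among sites of at most 100 reads, the region had a larger share of nearly unmethylated CpG than its flanks. Under 10% methylation lay 334 of the 3242 MHC CpG sites (10.3%), against 4.84% in the proximal flank, 2.06% in the distal flank and 3.19% over the autosomes. At 90% or more lay 38.9% of MHC CpG, against 46.1%, 33.4% and 48.7% in those sets. The median CpG was 82.6% methylated in the region, 86.5% in the proximal flank, 80% in the distal flank and 88.5% over the autosomes. The depth limit left out 479 CpG in the distal flank and none in the MHC region. With no maximum the region's CpG level was 40.6 points above the distal flank's. The shares above were not computed without the limit, so the contrast with the distal flank holds only under it.

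Among sites of at most 100 reads, runs of at least 5 neighbouring listed CpG, each under 10%, were more frequent per listed CpG in the MHC region than in either flank. The MHC region held 17 runs with 161 CpG, or 4.97% of its listed CpG, where 0.988% of autosomal CpG lay in such runs. The proximal flank held 8 runs with 49 CpG (1.16%), and the distal flank 2 runs with 16 CpG (0.500%). The distal count rested on the depth limit, which left out 479 CpG there and none in the MHC region: with no maximum the counts were 17 in the MHC region, 8 in the proximal and 15 in the distal flank. Under the limit of 100 reads, runs per 1000 listed CpG numbered 5.24 in the MHC region, 1.89 in the proximal flank, 0.625 in the distal flank and 1.28 over the autosomes. These rates were not computed with no maximum. No test was made of these counts. The MHC runs had a median of 9 CpG (5 to 23), spanned 40 to 3448 bases with a median of 394, and had levels of 0% to 2.69%. They fell in 10 of the 36 steps. Without the CpG in runs, the CpG level was 74.4% in the MHC region, 77.1% in the proximal flank, 72.1% in the distal flank and 79.8% over the autosomes, so the region's value stayed below the proximal flank's and the autosomes'. All 17 rested on shallow sites, of 20.9 to 25.1 reads per CpG: at a minimum of 30 reads no run remained in the MHC region or the proximal flank, and 2 in the distal flank.

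**Figure D3:**
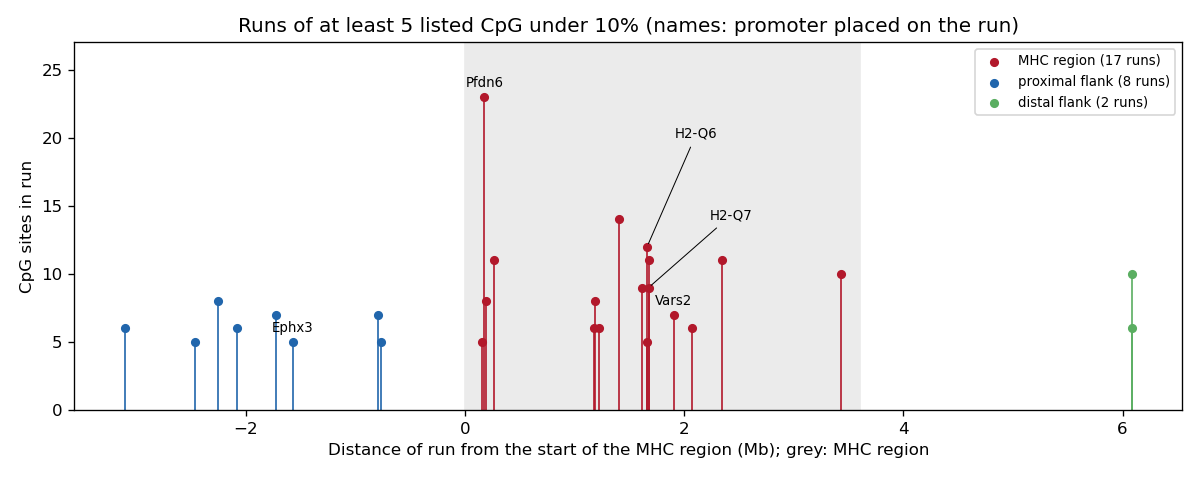
Number of listed CpG in each run of at least 5 CpG under 10%, against the distance of the run from the start of the MHC region in Mb; the MHC region is shaded and names mark promoters placed on a run. Among sites of at most 100 reads, the MHC region held 17 runs of up to 23 CpG, against 8 runs of up to 8 CpG in the proximal flank and 2 runs in the distal flank.

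The longest run by CpG number, 23 CpG at chr17:34076815-34077513, had 2 methylated of 506 reads (0.395%) and ran over the Pfdn6 start. It and 2 further runs brought the step chr17:34000001-34100000 to a CpG level of 45.8%, the lowest of the region. A run of 14 CpG at chr17:35300957-35302446, with 0 of 319 reads methylated, lay between Pfdn6 and Lta, 39849 to 41338 bases downstream of the Lta start, and its step had a CpG level of 50.7%. A run of 11 CpG at chr17:34161006-34164453, with 0 of 247 reads, lay in the same interval near Pfdn6, but it spanned a gap of 3348 bases with no listed CpG. Between Vars2 and Olfr99 lay a run of 11 CpG at chr17:36247666-36248002 (1.57%) and a run of 10 CpG at chr17:37334320-37334713 (2.18%). That interval holds the T-group and M-group genes among many others, and neither run was tied to a gene. A run of 9 CpG at chr17:35516960-35517030, with 0 of 202 reads, lay between Lta and Gm32252, and both CpG next to it were 100% methylated. That interval holds H2-D1, H2-Q1, H2-Q2 and H2-Q4 among other genes. The largest run of the proximal flank had 8 CpG (chr17:31648512-31648858, 1.58%), followed by 7 CpG at 0% (chr17:32173411-32174318). In the distal flank 10 CpG (chr17:39982598-39982680, 3.20%) and 6 CpG (chr17:39983478-39983558, 7.65%) both lay in the step of 28.8%, at 59.3 and 65.3 reads per CpG.

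The densest step, chr17:35500001-35600000, held 5 of the 17 runs with 46 CpG and the promoters of H2-Q6 and H2-Q7. Its CpG level was 59.5%, its CHG level 0.804% and its CHH level 1.09%, the highest CHH among tested MHC steps. It listed 769 CHH sites, more than any other MHC step, at a median CHG depth of 26 reads, against 21 to 23 reads in the other steps. Without it the region's CHH level was 0.628%, and the CHH difference from the proximal flank was -0.028 points (adjusted Fisher p = 0.376). The Q genes are near copies: at a single shift and with no gaps, the 300-base promoters of H2-Q6 and H2-Q7 were identical at 200 of 261 bases (76.6%). That value understates their likeness, because part of the length was compared out of register. The letters GGGATTCCC begin at base 79 in H2-Q6 and 119 in H2-Q7, but CCAAT begins at 196 and 235. An alignment with gaps was not made. How the authors' alignment split reads between such copies is not given in the sources used here, so values of each Q gene are uncertain, and the part of this in the step's depth and levels was not tested.

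The H2-Q6 promoter was almost free of CpG methylation. Its 9 listed CpG, between 61 bases before and 16 bases after the gene start, had 3 methylated of 211 reads (1.42%, 0.294 to 4.10), at levels of 0% to 8%. The low stretch was bounded: 10 CpG from 3000 to 501 bases before the start had 86.0% (81.4 to 89.9), 18 CpG from 100 bases before to 1000 after had 2.79% (1.45 to 4.82), and 2 CpG beyond 1000 and up to 3000 bases after had 80.5% (65.1 to 91.2). A run of 12 CpG under 10%, chr17:35561733-35562333 (1.75%), lay in this stretch, but it spanned a gap of 480 bases with no listed CpG. A run of 5 CpG followed at chr17:35562347-35562386 (1.71%). Its last CpG lay 592 bases after the start, and the next listed CpG lay 1875 bases after it. No CpG was listed from 500 to 101 bases before the start, so the capitals of the printed H2-Q6 sequence all stand in its last part.

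At H2-Q7 the listed CpG showed a slope upstream. The CpG at base 19 of the printed sequence was at 50% (20 of 40 reads), the CpG at base 51 at 21.2% (7 of 33), and the 9 from 61 bases before to 42 after were at 0% to 8.33%. Over the window this gave 33 of 296 reads (11.1%, 7.80 to 15.3). Further out, 7 CpG from 3000 to 501 bases before the start had 85.2%. From 100 bases before to 1000 after, 31 CpG had 16.1% (13.6 to 18.9), of which 21 were under 10%. These included the run of 9 CpG over the start, chr17:35576038-35576141 (2.69%), and a run of 11 CpG at chr17:35576502-35576592, from 403 to 493 bases after it, with 0 of 266 reads methylated. The 7 CpG beyond 1000 and up to 3000 bases after had 81.6% (75.3 to 86.9). Both Q genes thus had an unmethylated start between methylated sides.

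**Figure D4:**
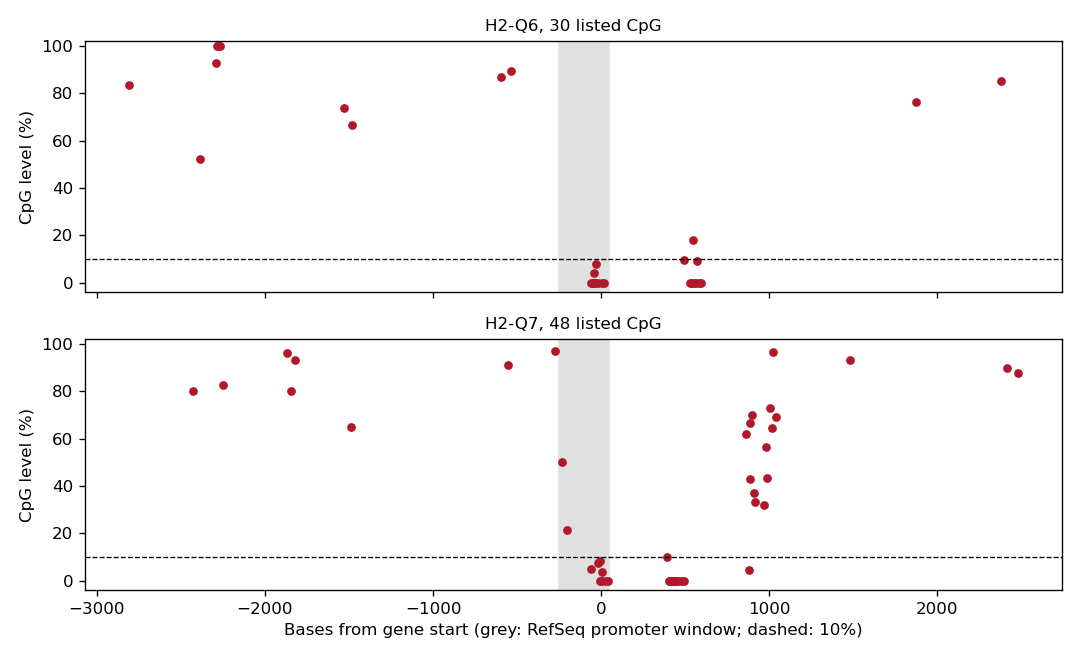
CpG level in percent of every listed CpG within 3000 bases of the placed gene start of H2-Q6 (top, 30 CpG) and H2-Q7 (bottom, 48 CpG), against bases from that start; the promoter window is shaded and 10% is dashed. CpG from 501 to 3000 bases upstream stood at 86.0% in H2-Q6 and 85.2% in H2-Q7, and those at the starts near 0%.

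Class I promoters carry known regulatory motifs, and these were searched by letters on both strands of all 32544 RefSeq promoters. Only the patterns given below were matched. Variant forms, those of the interferon-stimulated element among them, were not searched. A missing match in H2-Q6 or H2-Q7 therefore does not show that the element is absent. GGGATTCCC, the palindromic kappa B core bound by NF-kappa B, was in 0.353% of promoters and in both H2-Q6 (from base 79 of the printed sequence) and H2-Q7 (from base 119). It holds no CpG. TGACG, the core of the X2 box used by class I and class II genes, was in 20.9% of promoters and in H2-Q7 (from base 187), where its CpG had 1 methylated of 20 reads (5%). It was not found in the H2-Q6 window. CCAAT, the Y box core, was in 37.4% of promoters, in H2-Q6 from base 196 and in H2-Q7 from base 235, and once on the other strand of each. The interferon-stimulated element core, TTTC, any 2 bases and TTTC again, was in 3.45% of promoters and in none of those placed in the region. The first 2 motifs and CCAAT share no base in these sequences, and a letter match is not evidence of binding.

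The other promoters of the region split in the same way. Pfdn6 had 0 of 146 reads methylated over 7 CpG, Vars2 had 0 of 106 over 5 CpG, and Olfr99 had 0 of 21 at its sole listed CpG. Lta, a gene mainly of lymphocytes, had 63.2% (52.2 to 73.3) over 4 CpG, at 42.9% to 78.3%. Gm32252, a predicted gene just before H2-Q6 in RefSeq order, had 67.3% (57.5 to 76.0) over 4 CpG. So 5 of the 7 placed promoters had 11.1% or less, and Lta and Gm32252 stood above 60%. Pfdn6 and Vars2 were placed only by a search at runs under 10%, so their low levels follow from how they were found. The other 5, H2-Q6 and H2-Q7 among them, were placed by the search of the whole chromosome, which did not use levels: Olfr99, H2-Q6 and H2-Q7 had 0% to 11.1%, Olfr99 from a single CpG, and Lta and Gm32252 had 63.2% and 67.3%. The 4 distal flank promoters with a listed CpG (Olfr131, Esp15, Esp38 and Gm44501), found in the same way, had 50% to 96.0%, a range that holds Lta and Gm32252. In the proximal flank Ephx3, placed only at a run, had 1.85% over 5 CpG.

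**Figure D5:**
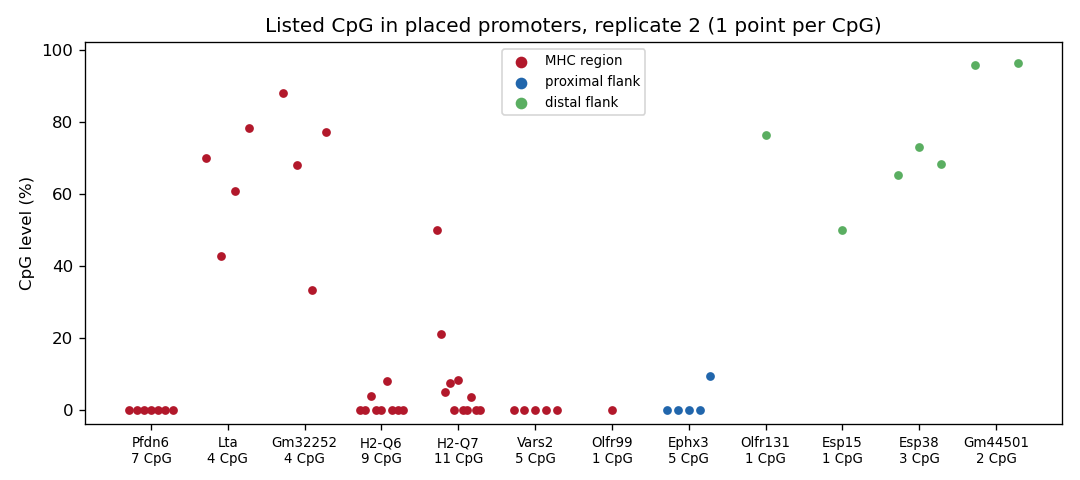
CpG level in percent of each listed CpG in the 300-base promoters placed in the MHC region (red), the proximal flank (blue) and the distal flank (green), in chromosome order within each segment. In the MHC region the CpG of Pfdn6, H2-Q6, Vars2 and Olfr99 lie at 0% to 8%, those of Lta and Gm32252 at 33.3% to 87.9%, and H2-Q7 has a single pair above 10%.

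Few cytosines outside CpG were listed inside runs. Inside MHC runs 168 CHG sites had 0.679% (0.448 to 0.986), against 0.650% outside runs, and 27 CHH sites had 0.355% (0.073 to 1.03), against 0.714%. Both intervals inside MHC runs contain the values outside, so no difference was detectable at this depth. In the proximal flank 62 CHG sites inside runs had 0.070% (0.0018 to 0.389), an interval below the 0.699% outside runs. The distal flank went the other way. There 26 CHH sites inside runs had 1.03% (0.612 to 1.63), an interval above the 0.404% outside. Its 14 CHG sites inside runs had 0.837% (0.337 to 1.72), an interval that contains the 0.418% outside. Over the 7 placed promoters CHG was read at 2 to 18 sites each, too few for a level: H2-Q7 had 0 of 452 reads methylated at 15 CHG sites (up to 0.813%) and 4 of 532 at 15 CHH sites (0.752%).

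Replicate 1 listed 10 CpG, 26 CHG and 81 CHH sites in the region. Its levels there were 74.6% in CpG, 0.503% in CHG (3 of 596 reads) and 1.14% in CHH (20 of 1761 reads). At the 7 CpG listed in both libraries, replicate 1 had 71.6% and replicate 2 had 76.0%. At the 31 shared CHH sites the levels were 0.275% in replicate 1 and 0.385% in replicate 2, and no methylated read was seen in either at the 12 shared CHG sites. Replicate 1 thus gives no check of the steps or runs, and no value here has a spread over libraries.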

How the data were processed

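Bisulfite reads of 2 dentate gyrus libraries were processed with Bismark 0.7.5 on mm9, per the submitters' processing notes. The authors deposited, for 1 strand class and every listed cytosine, read counts (methylated, unmethylated, total) and the percent methylated. No source used here names trimming or duplicate removal. The deposited tables of replicate 2 hold 2881459 CpG, 18322704 CHG and 6231179 CHH sites, at lowest depths of 20, 20 and 30 reads and median depths of 23, 23 and 32. Replicate 1 holds 7959, 39325 and 124736 sites and was used for levels at shared sites.

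Sites of over 100 reads were left out: none of the CpG, 12 CHG and 35 CHH in the MHC region, and 479, 304 and 694 in the distal flank. Levels are read-weighted, with exact Clopper-Pearson intervals at 95%, and intervals of differences are Wald intervals. Binomial tests used the mitochondrial CHG and CHH level and were adjusted over all autosomal steps of at least 100 sites (0.05) or over all nuclear sites of a context (0.01). They were tested on simulated data, where 0.073% of CHG steps at background passed. In that simulation 23200 of 23800 steps were at background, while in the data 93.4% of autosomal CHG steps passed. The adjusted cutoff was therefore stricter in the simulation, and 0.073% is not the error rate of the calls made here. Named were the 5 highest and 5 lowest CHG steps, stretches of at least 2 steps that did not pass, the 8 runs with the most CpG, 2 per flank, and the 5 sites of lowest p. Position broke ties.

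Promoters needed at least 13 matching listed cytosines at a single place of the chromosome, or at least 8 with at least 3 CpG at a run. Of 54 promoters of the chromosome with a single place, 11 lay within the 3 segments and 43 outside them. Of the 54, 7 stood out of RefSeq order, and which ones these were was not recorded. Gene names and order come from RefSeq GRCm38.p6. Members and lists were chosen with earlier results of these data known. Alternatives covered depth limits, background, thresholds, step size, run rules and single steps. Python 3.11.15, numpy 2.4.6, scipy 1.17.1 and pandas 2.3.3 were used.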

Additional observations from a re-analysis of the deposited data

How the results depend on the processing

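Among the recomputed values, 59 were counted as unchanged. Levels and differences among them kept their direction and their side of the threshold or moved by no more than their counting interval. Shares of steps and counts of sites and runs had only to stay within a fixed fold limit. So the 59 include CHG steps above background at 23 of 36 with an adjusted p of 0.001 and 17 of 17 with steps of 200 kb. They also include 12 runs without the step with the most CHH sites. Some of the 59 could not change. CHH sites were listed only at 30 reads or more, so that minimum left the CHH levels, differences and step counts as they were. No CpG of the region or its proximal flank had over 100 reads, so lifting the maximum left their CpG values and runs as they were. At 30 reads only 1 MHC step could be tested in CHG, and it passed. The CpG level of the MHC region was 74.4% at sites of at least 30 reads, 75.3% at 40 reads, 71.7% without the step with the most CHH sites and 74.4% without CpG in runs. Its CHG level was 0.796% at 40 reads. Its CHH level was 0.959% at 40 reads, 0.658% with no depth maximum and 0.628% without that step. The CpG difference from the distal flank was 20.3 points at 30 reads, 52.7 at 40 reads, 40.6 with no maximum and 0.376 without that step, all reversed and, except 0.376 (adjusted p = 0.127), past the threshold of Fisher's test, and -4.18 points at sites of at most 50 reads, -5.24 without the distal step of the lowest CpG level and -3.43 as a mean of site levels. The CHG difference from the proximal flank was 0.021 points at 30 reads and 0.417 at 40 reads. The CHH difference from the proximal flank was 0.495 points at 40 reads, where it passed, and -0.028 without the step with the most CHH sites. Steps above background fell to 52.8% in CHG (19 of 36) and 44.4% in CHH (8 of 18) with a background of 0.5%, and to 44.4% in CHH at an adjusted p of 0.001. Called sites outside CpG numbered 104 at 30 reads and 135 with a background of 1%, against 322. Runs numbered 33 with at least 3 CpG (28 and 3 in the proximal and distal flanks), 7 with at least 10 CpG (0 and 1) and 0 at 30 reads (0 and 2). With no depth maximum they numbered 17 (8 and 15), so the region and its distal flank were then close. The cause was not tested. CpG lower than in the proximal flank, and CHG and CHH higher than in the distal flank, held under every alternative run, though some alternatives could not change them. The alternatives that leave out a step or the CpG in runs were chosen after seeing the data. No paired analysis was possible because only replicate 2 entered the comparisons, and for the same reason no replicate could be left out. Sites just above the lowest listed depth carry most values, and copies that share reads cannot be told apart.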
